A study of Mus musculus with 4 samples.

Results

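Cytokine-inducible SH2-containing protein (Cish), 3 suppressors of cytokine signalling (Socs1, Socs2 and Socs3) and the 3 PIM kinases (Pim1, Pim2 and Pim3) were read in pre-B cells, as genes known to be switched on by cytokine receptors and STAT factors. They were chosen by symbol, and all 7 were found among the 23284 gene symbols listed for each library. Pre-B cells are marrow cells on the way to B lymphocytes, with a rearranged immunoglobulin heavy chain gene. They came from C57BL/6J mice in 4 RNA-seq libraries, with 1 library in each of 4 groups: wild-type marrow at steady state, marrow of mice with a transgene for the adaptor protein STAP-2 (gene Stap2) at steady state, wild-type marrow 1 month after transplantation, and marrow labelled STAP-2 knockout 1 month after transplantation. The promoter of the transgene, the kind of knockout allele, the transplant host, the gate for pre-B cells and the number of animals per library are not stated in the labels. The study asked how STAP-2 bears on B lymphopoiesis and on the recovery of stressed marrow.

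Cytokine receptors signal through JAK kinases, which phosphorylate STAT transcription factors. STATs in turn induce the CIS and SOCS proteins, which bind the receptor or the kinase through an SH2 domain, recruit a ubiquitin ligase through the SOCS box and so close a negative feedback loop. PIM kinases are serine/threonine kinases that are active as soon as they are made, so that their amount follows their transcription and the stability of their RNA and protein; they promote survival, growth and cell cycle entry. In pre-B cells the main cytokine input is interleukin-7, acting through JAK1, JAK3 and STAT5.

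Values are FPKM, fragments scaled to the length of the transcript and to the number of mapped fragments. The 4 libraries held an estimated 7340000, 7280000, 7760000 and 8700000 reads, in the order in which the groups are named above, which is used throughout. With 1 library per group no difference had a replicate check and none was tested. The 95% intervals given with levels and ratios hold counting error alone, and without molecular identifiers a read need not be a separate molecule. Stap2 itself stood at 0.212, 0.536, 0 and 0.179 FPKM, or 2, 5, 0 and 2 reads, where 3 reads would be 0.319, 0.321, 0.301 and 0.269 FPKM. Its level therefore checks neither the transgenic nor the knockout label, and the name of the fourth library is taken from its label alone. Some B lineage genes were high in every library: Cd79a (1624 to 1952 FPKM), Pax5 (287 to 334), Rag1 (286 to 638) and Il7r (176 to 276). Other pre-B markers were not uniform. Vpreb1 stood at 7.31, 34.4, 30.2 and 38.6 FPKM and Igll1 at 14.6, 39.9, 36.4 and 49.7, both lowest in steady-state wild type. The T cell receptor chain gene Cd3e stayed between 0.444 and 0.562 FPKM. The neutrophil genes S100a8 (261 to 720 FPKM) and S100a9 (227 to 670) were also read in every library.

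The promoters of 3 of the SOCS genes are shown because they hold the letters of the elements through which STAT and interferon regulatory factors are known to act. Each is 250 bases before and 50 bases after a start taken from RefSeq on GRCm38.p6, written 5′ to 3′ on the gene's strand. For Cish and Socs3 the GENCODE gene begins further upstream, so that the whole window lies inside it and positions hold for the RefSeq start alone. Capitals mark matches to TTCNNNGAA, the gamma-activated site bound by STAT dimers, in Cish and Socs3, and to GAAA and GAAA with any 2 bases between them, an interferon regulatory factor element, in Socs1; N stands for any base. Both strands were searched, and TTCNNNGAA is its own reverse complement.
Cish, chr9:107296409-107296708, plus strand: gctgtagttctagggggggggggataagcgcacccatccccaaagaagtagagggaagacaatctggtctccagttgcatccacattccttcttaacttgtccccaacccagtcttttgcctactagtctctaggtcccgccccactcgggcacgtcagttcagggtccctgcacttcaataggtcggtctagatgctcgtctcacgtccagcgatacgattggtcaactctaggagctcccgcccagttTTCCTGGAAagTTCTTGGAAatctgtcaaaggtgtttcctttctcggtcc
Socs3, chr11:117969317-117969616, minus strand: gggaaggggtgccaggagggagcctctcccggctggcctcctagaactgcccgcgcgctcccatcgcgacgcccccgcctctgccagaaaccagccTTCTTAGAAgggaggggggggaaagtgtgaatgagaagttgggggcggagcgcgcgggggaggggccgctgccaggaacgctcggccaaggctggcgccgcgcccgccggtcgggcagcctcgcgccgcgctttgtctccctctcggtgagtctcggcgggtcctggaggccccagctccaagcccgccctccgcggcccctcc
Socs1, chr16:10785487-10785786, minus strand: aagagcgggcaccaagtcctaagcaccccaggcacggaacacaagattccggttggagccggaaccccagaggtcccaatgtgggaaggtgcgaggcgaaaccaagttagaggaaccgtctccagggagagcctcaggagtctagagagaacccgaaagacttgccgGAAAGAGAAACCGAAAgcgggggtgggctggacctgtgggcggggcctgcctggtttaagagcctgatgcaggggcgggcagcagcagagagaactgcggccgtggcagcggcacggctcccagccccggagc
The Cish window held 2 gamma-activated sites, TTCCTGGAA at positions 1 to 9 and TTCTTGGAA at 12 to 20, counted from the RefSeq start as 1. The Socs3 window held 1, TTCTTAGAA at -154 to -146. The Socs1 window held 2 overlapping interferon regulatory factor elements, GAAAGAGAAA at -83 to -74 and GAAACCGAAA at -77 to -68, and no gamma-activated site. Of 10013 promoters of genes at 1 FPKM or more in any library, 7.07% held TTCNNNGAA and 0.399% held it 2 times or more, and 3.14% held the interferon regulatory factor element. Promoter windows were matched for 6 of the 7 genes, all but Socs2, and for 7 windows in all, since Pim1 has 2. The windows of Pim1, Pim2 and Pim3 held neither set of letters, which says nothing of elements further away. A match is a description of letters and not evidence of binding in these cells.

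The 7 genes lie on 7 chromosomes, Cish on 9 (107296026 to 107302784), Socs1 on 16 (10782240 to 10785536), Socs2 on 10 (95385362 to 95417180), Socs3 on 11 (117966079 to 117970047), Pim1 on 17 (29490753 to 29496112), Pim2 on X (7878262 to 7883432) and Pim3 on 15 (88862186 to 88865726), by GENCODE M21 on GRCm38. Antisense or pseudogene models on the opposite strand overlap Cish (Gm17040 and Gm17041) and Pim1 (Gm26885), and none of these models is listed in the files. The libraries were made with a stranded kit, but no source used here says whether the counting used strand, so reads of these partners cannot be told apart from those of Cish and Pim1.

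The 7 genes ran from 0.908 to 185 FPKM, and their order by FPKM was the same in all 4 libraries: Pim1, Pim2, Socs1, Pim3, Socs2, Socs3 and Cish. Pim1 ranked between 388 and 610 among all genes and Pim2 between 620 and 965, whereas Cish, the lowest, ranked between 9901 and 10642. Neighbours in this order were separated beyond counting error except Socs3 and Cish, whose ratio was 1.37 (0.667 to 2.95) in steady-state wild type, 1.19 (0.724 to 1.99) in the transgenic and 1.15 (0.638 to 2.10) in the labelled knockout library, and Pim3 and Socs2 in the transgenic library (1.23, 0.966 to 1.57). In transplanted wild type Socs3 lay above Cish, at a ratio of 2.12 (1.24 to 3.81).

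**Figure D1:**
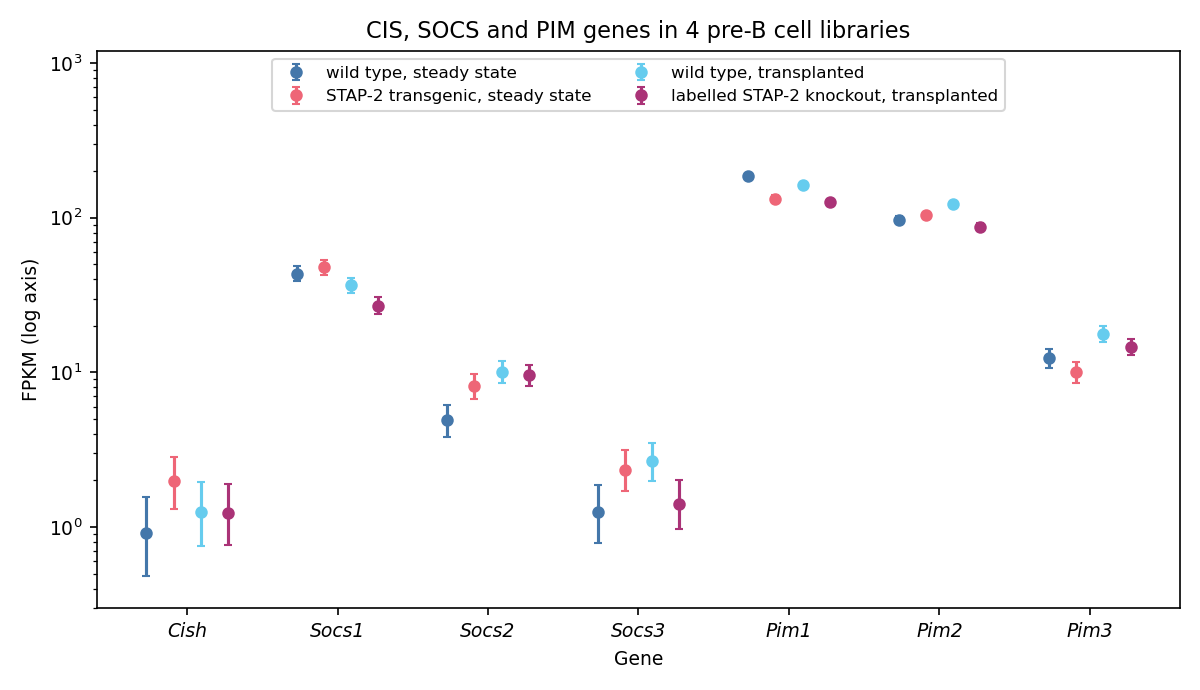
FPKM of each gene (log axis) in the 4 libraries, 1 point per library, with 95% counting intervals from the reads of that library. Pim1 and Pim2 sit at 87.1 to 185 FPKM in every library, Socs1 at 27.0 to 47.6, and Cish and Socs3 at 0.908 to 2.66.

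Cish encodes CIS, a textbook target of STAT5 that masks STAT5 docking sites on receptors. It was at 0.908, 1.97, 1.25 and 1.24 FPKM, which rested on 13, 28, 19 and 21 reads. The transgenic library was the high one, and the counting intervals of all 4 libraries overlapped (0.483 to 1.55 FPKM in steady-state wild type, 1.31 to 2.85 in the transgenic one).

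Socs2, a feedback inhibitor of growth hormone and related receptors and likewise a STAT5 target, was at 4.90, 8.11, 10.02 and 9.59 FPKM. Wild type at steady state was the lowest, at an interval of 3.82 to 6.14 FPKM that lay below those of the others, which began at 6.73, 8.54 and 8.20. Its reads, about 72, 119, 157 and 168, were estimated from a transcript of 2222 nt because the values did not reduce to whole reads; 14 transcripts are annotated.

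Socs3, the inhibitor of the gp130 and G-CSF receptors, was at 1.25, 2.35, 2.66 and 1.42 FPKM from 23, 43, 52 and 31 reads. The transgenic library and transplanted wild type were high and the other 2 libraries low. Socs1, which blocks JAK kinases downstream of interferons and interleukin-7 through a kinase inhibitory region, was the main SOCS transcript, at 43.4, 47.6, 36.5 and 27.0 FPKM from 322, 350, 286 and 237 reads. Both steady-state libraries lay above both transplanted ones, and the library labelled knockout was the lowest, with an interval (23.7 to 30.6 FPKM) below that of every other library. The Socs1 intervals of wild type at steady state (38.8 to 48.5 FPKM) and after transplantation (32.4 to 40.9) overlapped.

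Pim1, first known as an oncogene of retroviral lymphomas, was at 185, 132, 163 and 125 FPKM. Both wild-type libraries were above both libraries of altered genotype, and the intervals of the lower wild type (156 to 170 FPKM) and of the transgenic library (126 to 139) did not meet. Pim2, which supports survival of lymphocytes alongside Pim1, was at 96.4, 104, 123 and 87.1 FPKM; transplanted wild type was the highest and the library labelled knockout the lowest. Pim3, the third kinase of the family, was at 12.3, 10.01, 17.7 and 14.5 FPKM from 200, 161, 304 and 279 reads, and both transplanted libraries were above both steady-state ones. The intervals of steady-state wild type (10.7 to 14.2 FPKM) and of the labelled knockout (12.9 to 16.3) overlapped.

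Summed over the family, PIM transcripts stood at 294, 246, 303 and 227 FPKM, and those of Cish and Socs1 to Socs3 at 50.5, 60.0, 50.4 and 39.2 FPKM. The balance within each family was not constant. Pim1 made up 63.0% of the PIM sum in wild type at steady state and 53.8%, 53.6% and 55.2% in the other libraries. The ratio of Pim1 to Pim2 was 1.92 (1.79 to 2.06) in steady-state wild type, above the ratios of 1.27 (1.18 to 1.37), 1.32 (1.24 to 1.41) and 1.44 (1.34 to 1.55) in the others. Socs1 held 86.0%, 79.3%, 72.3% and 68.8% of the CIS and SOCS sum, while Socs2 held 9.70%, 13.5%, 19.9% and 24.4%. Thus steady-state wild type was richest in Socs1 and Pim1 relative to the rest of their families.

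**Figure D2:**
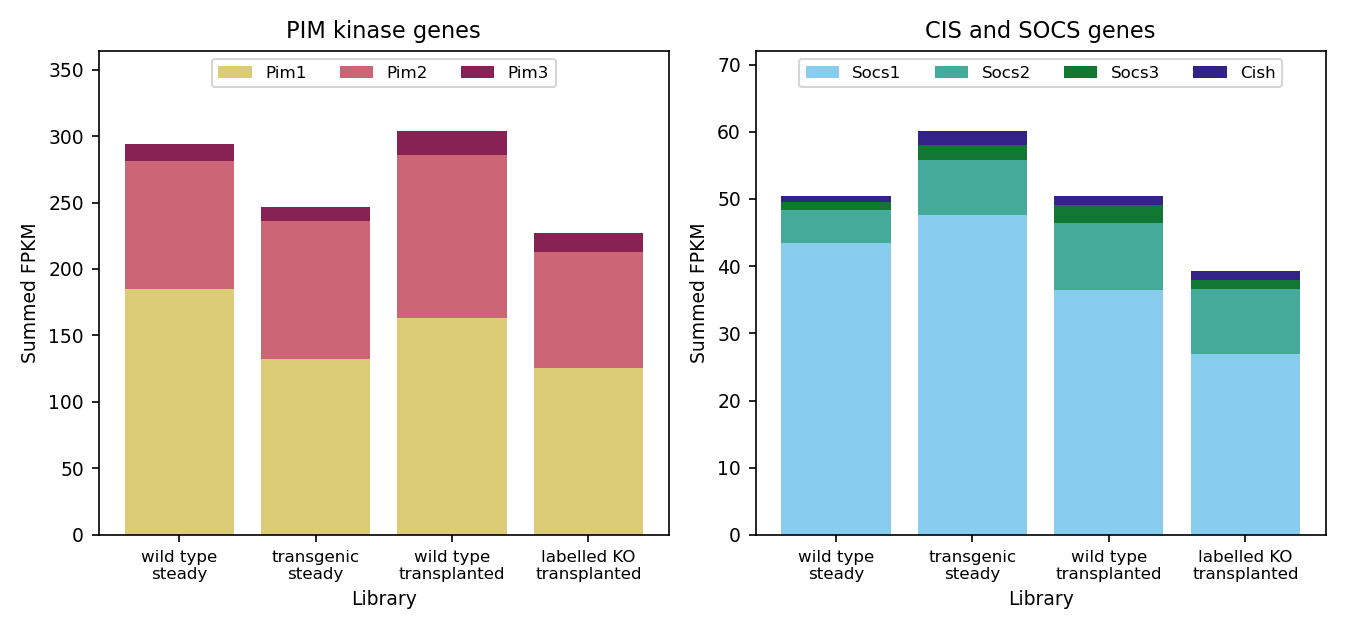
Summed FPKM of the PIM kinase genes (left) and of the CIS and SOCS genes (right) in each library, with bars divided by gene and starting at 0. Socs2 takes 9.70% of the CIS and SOCS sum in steady-state wild type against 24.4% in the labelled knockout.

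The transgenic library was set against wild type at steady state to read these outputs beside the transgene named in its label. At 5 and 2 reads, Stap2 itself does not show a gain. Cish, Socs2 and Socs3 were higher in the transgenic library and Pim1 was lower, while Socs1, Pim2 and Pim3 had counting intervals that included 1. Cish had a ratio of 2.17 (1.09 to 4.57), Socs3 of 1.88 (1.11 to 3.28) and Socs2 of 1.65 (1.23 to 2.27). Pim1 was 1.40-fold lower (1.31 to 1.49). Socs1 had a ratio of 1.10 (0.939 to 1.28), Pim2 of 1.08 (0.998 to 1.16) and Pim3 of 0.812 (0.655 to 1.00). The SOCS genes of low level thus moved one way and the most abundant kinase the other.

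All 7 genes passed the filter of 1 FPKM in either library, Cish through the transgenic library alone. On the scale of log2(FPKM + 1), which understates the change of low genes, the differences of Cish, Socs2 and Socs3 were 0.64, 0.63 and 0.58 and that of Pim1 was -0.48. None of the 7 reached 2-fold on that scale, higher or lower, against 1.22% and 0.682% of the 10843 genes tested. At 1.5-fold Cish and Socs2 were higher, 2 of 7 against 3.81% of all genes, and none was lower, against 2.31%. Counting intervals lay above 1 for 3 of 7 genes, against 13.7% of 10541 genes with a read estimate, and below 1 for 1 of 7, against 17.4%. By sign alone 5 of 7 were higher, against 46.7% of all genes, and 2 were lower, against 53.3%. The median of the 7 was 0.13, beside -0.02 over all tested genes. When each library was rescaled to the same sum of FPKM, the median of the 7 was 0.0115 with 4 higher and 3 lower, beside -0.13 over all genes, and Pim2 changed sign to -0.01.

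In the same pair of libraries the markers of neutrophils, a cell type in which Socs3 is known to be induced by G-CSF, were higher for 16 of 16 genes, 10 of them by 2-fold. Their summed level was 778 FPKM in wild type against 1861 with the transgene, and none of the 16 was at 0 in either. Interferon-stimulated genes were higher for 22 of 24 genes, with a summed level of 643 and 1627 FPKM, of which Ifi27l2a made up 348 and 1163. Mature B cell markers were higher for 10 of 11 (1760 and 2364 FPKM in sum) and mitosis genes for 21 of 21 (763 and 995). Immediate early genes were lower for 17 of 22, with a summed level of 3708 and 2378 FPKM. The part of these cells and programmes in the differences of the SOCS and PIM genes was not tested, and in bulk RNA fewer cells of a type and less RNA per cell cannot be told apart.

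The library labelled knockout was set against wild type, both 1 month after transplantation, to read the same outputs in recovering marrow; at 2 and 0 reads, Stap2 itself does not show a loss. All 3 PIM genes, Socs1 and Socs3 were lower in the library labelled knockout, whereas Cish and Socs2 were nearly level. Socs3 was 1.88-fold lower (1.18 to 3.03), Pim2 1.41-fold (1.31 to 1.52), Socs1 1.35-fold (1.13 to 1.61), Pim1 1.30-fold (1.22 to 1.39) and Pim3 1.22-fold (1.03 to 1.44). Cish had a ratio of 0.987 (0.505 to 1.94) and Socs2 of 0.956 (0.764 to 1.20), and at 19 and 21 reads the interval of Cish is wide. The PIM kinases thus differed in the same direction and by similar ratios, from 0.708 to 0.819.

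On the log2(FPKM + 1) scale all 7 differences were negative, against 56% of the 10790 genes tested, and none was positive, against 44%, but those of Cish (-0.01) and Socs2 (-0.06) changed sign when libraries were rescaled to the same sum, and that of Cish also under rescaling by the median of gene ratios or the upper quartile. The median of the 7 was -0.37, beside -0.03 over all tested genes. No gene reached 2-fold, against 0.667% of all genes higher and 1.18% lower. Socs3, at -0.60, was the 1 gene at 1.5-fold lower, against 4.39% of all genes, and none was 1.5-fold higher, against 3.76%. Counting intervals lay below 1 for 5 of 7 genes, against 21.3% of 10487 genes, and above 1 for none, against 14.5%.

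Neutrophil markers were lower in the library labelled knockout for 15 of 16 genes, with a summed level of 1719 FPKM in wild type against 663, and Cxcr2 was the exception (1.68 and 2.31 FPKM). Immediate early genes were lower for 23 of 23, from a summed level of 3917 FPKM to 1964. Mature B cell markers were lower for 11 of 11 (2643 and 1673 FPKM) and mitosis genes were higher for 21 of 21 (614 and 1219 FPKM). Interferon-stimulated genes, a class to which Socs1 is also counted, were higher for 15 and lower for 10 of 25 under the deposited scale and higher for 20 and lower for 5 under rescaling to the same sum. Their summed level was 1351 and 1621 FPKM, but without Ifi27l2a (783 and 1065 FPKM) the other 24 summed to 567 and 557. The part of any of these in the differences of the 7 genes was not tested.

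**Figure D3:**
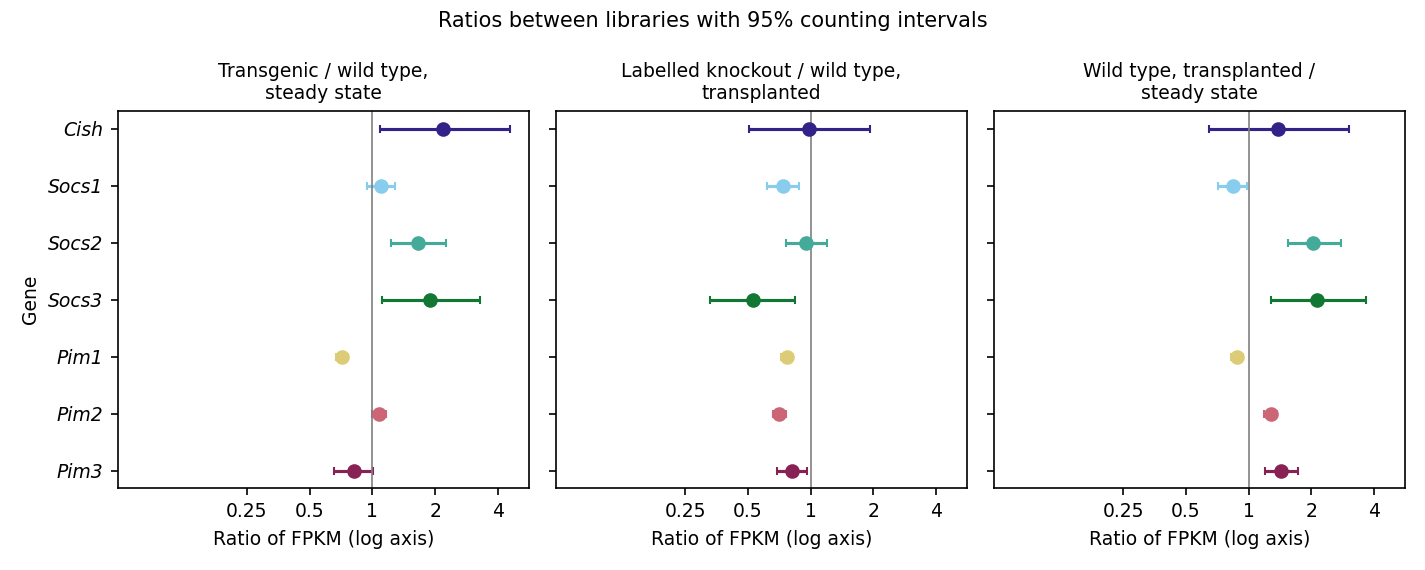
Ratio of FPKM (log axis) of each gene between pairs of libraries, with 95% counting intervals; the vertical line marks 1. The library labelled knockout has 5 of 7 intervals below 1, and the transgenic library has 3 above and 1 below.

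Transplanted wild type was set against steady-state wild type to show how far the 2 wild-type libraries lay apart. The titles of the steady-state pair and of the transplanted pair carry different codes, so transplantation and whatever the codes stand for cannot be told apart. Socs2 had a ratio of 2.05 (1.55 to 2.76), Socs3 of 2.14 (1.28 to 3.66), Pim3 of 1.44 (1.20 to 1.73) and Pim2 of 1.27 (1.19 to 1.37). Socs1 was 1.19-fold lower (1.01 to 1.40) and Pim1 1.14-fold lower (1.07 to 1.21). Cish had a ratio of 1.38 (0.647 to 3.04). For Socs2 and Socs3 these ratios were of the size of those between genotypes, or above, though the difference between the ratios was not tested.

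In log2(FPKM + 1) 5 of 7 were higher, against 45.9% of the 10835 genes tested, and 2 were lower, against 54.1%. The median of the 7 was 0.35, beside -0.02 over all of them. Socs2 (0.90) and Socs3 (0.71) were the 2 of 7 genes at 1.5-fold higher, against 5.2% of all genes, and none was 1.5-fold lower, against 2.28%. None was at 2-fold, against 1.67% higher and 0.628% lower. Counting intervals lay above 1 for 4 of 7, against 15.4% of 10530 genes, and below 1 for 2 of 7, against 18.1%. All 7 passed the filter, Cish through the transplanted library alone. Neutrophil markers were higher in transplanted wild type for 16 of 16 genes and interferon-stimulated genes for 25 of 25. Immediate early genes were higher for 19 of 23 (3708 and 3917 FPKM in sum), whereas Pim1 was lower. Mature B cell markers were higher for 11 of 11 and monocyte and macrophage markers for 10 of 10, while mitosis genes were lower for 21 of 21. The part of these was not tested. This comparison shares the steady-state wild type with the transgenic comparison and the transplanted wild type with the knockout comparison. Side by side, Socs3 gave 0.58, -0.60 and 0.71 for transgenic, labelled knockout and transplanted wild type against their references, Socs2 gave 0.63, -0.06 and 0.90, and Pim1 gave -0.48, -0.37 and -0.18.

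**Figure D4:**
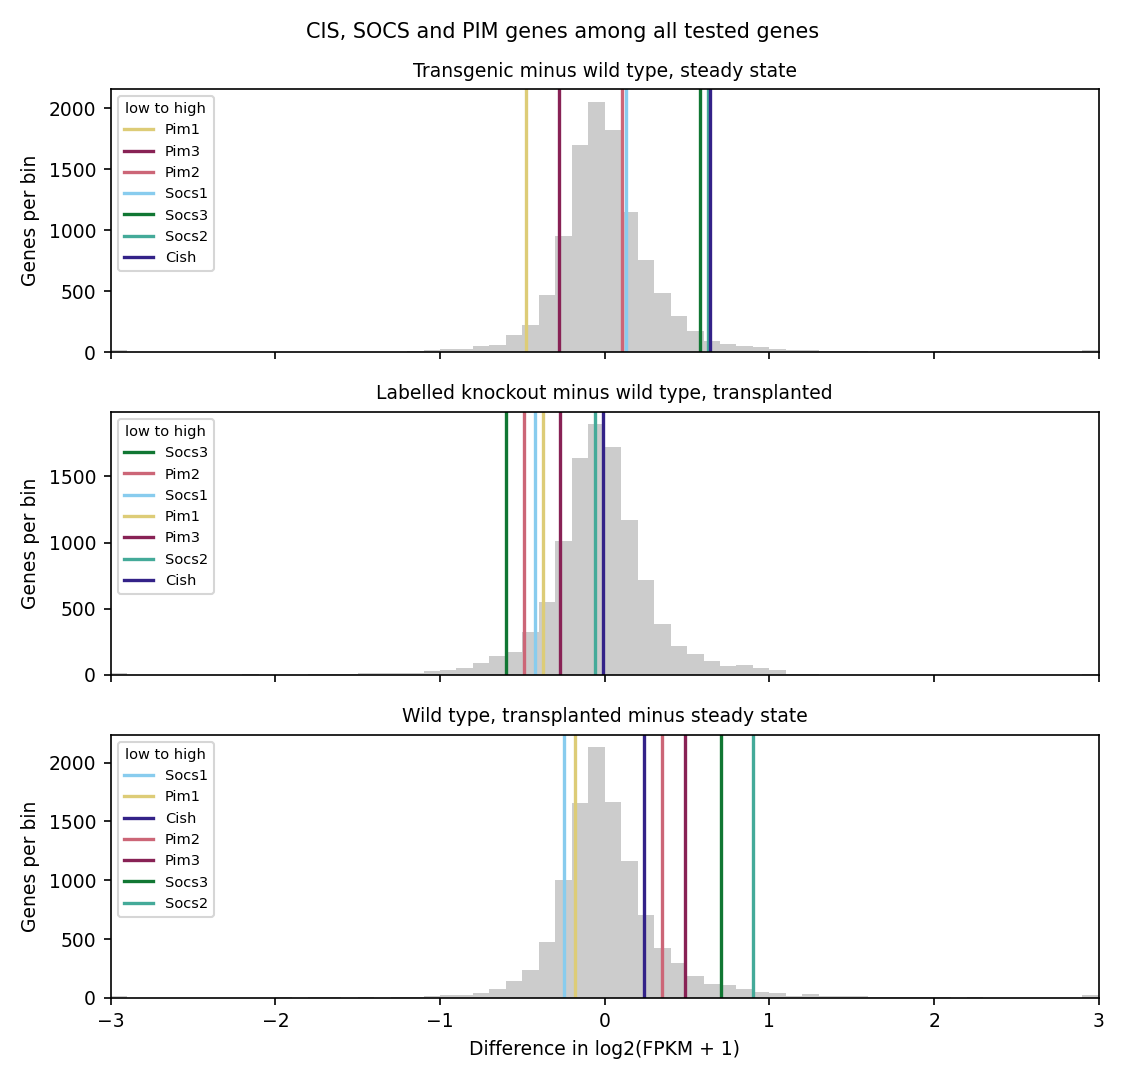
Histograms of the difference in log2(FPKM + 1) over all tested genes (grey, bins of 0.1, values beyond 3 placed in the end bins), with a coloured line at each of the 7 genes. Socs2 lies at 0.90 between the wild-type libraries, and all 7 lines lie at or below 0 in the comparison of the library labelled knockout, where Cish and Socs2 cross 0 under rescaling to the same sum.

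The remaining SOCS genes and the SOCS machinery varied less. Socs4 ran from 21.5 to 24.1 FPKM, Socs5 from 8.24 to 11.6, Socs6 from 8.18 to 9.44 and Socs7 from 10.7 to 12.1, and none of these 4 reached 1.5-fold in any comparison. Their medians were 0.02 in the transgenic comparison, 0.03 in the knockout comparison and -0.06 between the wild types, and -0.09, 0.12 and -0.16 under rescaling to the same sum. The subunits of the ubiquitin ligase recruited through the SOCS box were also under 1.5-fold. Elongin B, listed as Tceb2, was at 189 FPKM in transplanted wild type against 249.8 in the labelled knockout (ratio 1.32, 1.171 to 1.498), and the RING subunit gene Rnf7 at 56.6 and 71.0 (1.25, 1.04 to 1.51), in the opposite direction to the PIM genes. Both differences were similar in size to those of the PIM genes in that comparison. The cullin gene Cul5 of the same ligase lay in the same direction as the PIM genes. It was at 11.7 FPKM in transplanted wild type against 10.1 in the labelled knockout (ratio 0.862, 0.762 to 0.976).

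Of 11 JAK and STAT genes, 3 were 1.5-fold higher in the transgenic library and none lower, among them Jak3, the kinase of the common gamma chain, at 11.0 and 18.0 FPKM (ratio 1.63, 1.42 to 1.89), and Stat4, at 4.87 and 7.84 (1.61, 1.24 to 2.09). Stat5a ran from 11.7 to 12.2 FPKM over the 4 libraries and Stat5b from 22.2 to 24.4, so that their RNA was nearly level. The phosphorylation of STAT5 was not measured, and its part in the levels of Cish and Socs2 was not tested. In the library labelled knockout 9 of 11 were lower, none by 1.5-fold on the scale of log2(FPKM + 1). The median of the 11 was -0.17 (-0.07, with 8 of 11 lower, under rescaling to the same sum). Jak3, at -0.55 on that scale, was at 20.2 FPKM in wild type against 13.5 in the labelled knockout (plain ratio 0.667, 0.588 to 0.754). Jak3 thus stood at 11.0, 18.0, 20.2 and 13.5 FPKM over the 4 libraries, high in the same 2 libraries as Socs3.

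Cytokine receptor chains had 23 of 29 genes measured. In the transgenic library 5 were 1.5-fold higher and none lower, led by Il9r, the interleukin-9 receptor (2.65 and 8.89 FPKM, ratio 3.35, 2.17 to 5.31), Csf3r, the G-CSF receptor and a neutrophil marker (1.22 and 4.12, ratio 3.38, 2.23 to 5.35), and Il6ra (3.70 and 6.58, ratio 1.78, 1.35 to 2.35). In the library labelled knockout 5 were 1.5-fold lower and none higher, with Csf2rb (11.7 and 4.90 FPKM, ratio 0.419, 0.352 to 0.499) and Csf3r (3.03 and 0.989, ratio 0.326, 0.203 to 0.506) among them. Il7r, the interleukin-7 receptor chain and the most abundant of the list, lay in the opposite direction to these and to the PIM genes, at 176 FPKM in transplanted wild type against 256 in the labelled knockout (ratio 1.45, 1.40 to 1.51). Csf3r was high in the same libraries as Socs3, as the neutrophil markers, Jak3 and the mature B cell markers were. The part of the G-CSF receptor or of neutrophils in the level of Socs3 was not tested. The 12 other negative regulators, phosphatases, PIAS proteins and adaptors, had no gene at 1.5-fold in either genotype comparison. Between the wild types Ptpn6, the phosphatase SHP-1, was at 179 FPKM at steady state and 306 after transplantation (ratio 1.71, 1.63 to 1.79).

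Other STAT5 targets did not share 1 pattern. In the transgenic library Ccnd2 (cyclin D2) was at 4.95 and 9.29 FPKM (ratio 1.88, 1.58 to 2.24), while the survival gene Bcl2l1 was at 101 and 68.9 (0.679, 0.628 to 0.734). In the library labelled knockout Myc was at 38.0 and 17.2 FPKM (0.453, 0.395 to 0.520) and Bcl2 at 8.64 and 4.64 (0.537, 0.462 to 0.625), while Cdkn1a was at 6.66 and 10.4 (1.56, 1.19 to 2.05). Between the wild types Ccnd2 was at 4.95 and 25.5 FPKM (5.16, 4.43 to 6.02) and Myc at 10.8 and 38.0 (3.53, 2.98 to 4.21). Their medians over 11 genes were 0.06, 0.04 and 0.14 in the 3 comparisons, and -0.02, 0.13 and 0.06 under rescaling to the same sum. Genes of known PIM substrates had medians of -0.02 (0.0048 under rescaling to the upper quartile), -0.16 and -0.05 over 13 genes, and of -0.13, -0.06 and -0.15 under rescaling to the same sum; Bad, a pro-apoptotic protein that PIM kinases phosphorylate, was at 14.9, 9.84, 9.33 and 10.5 FPKM, and the cyclin-dependent kinase inhibitor gene Cdkn1b at 138, 104, 111 and 94.1.

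**Figure D5:**
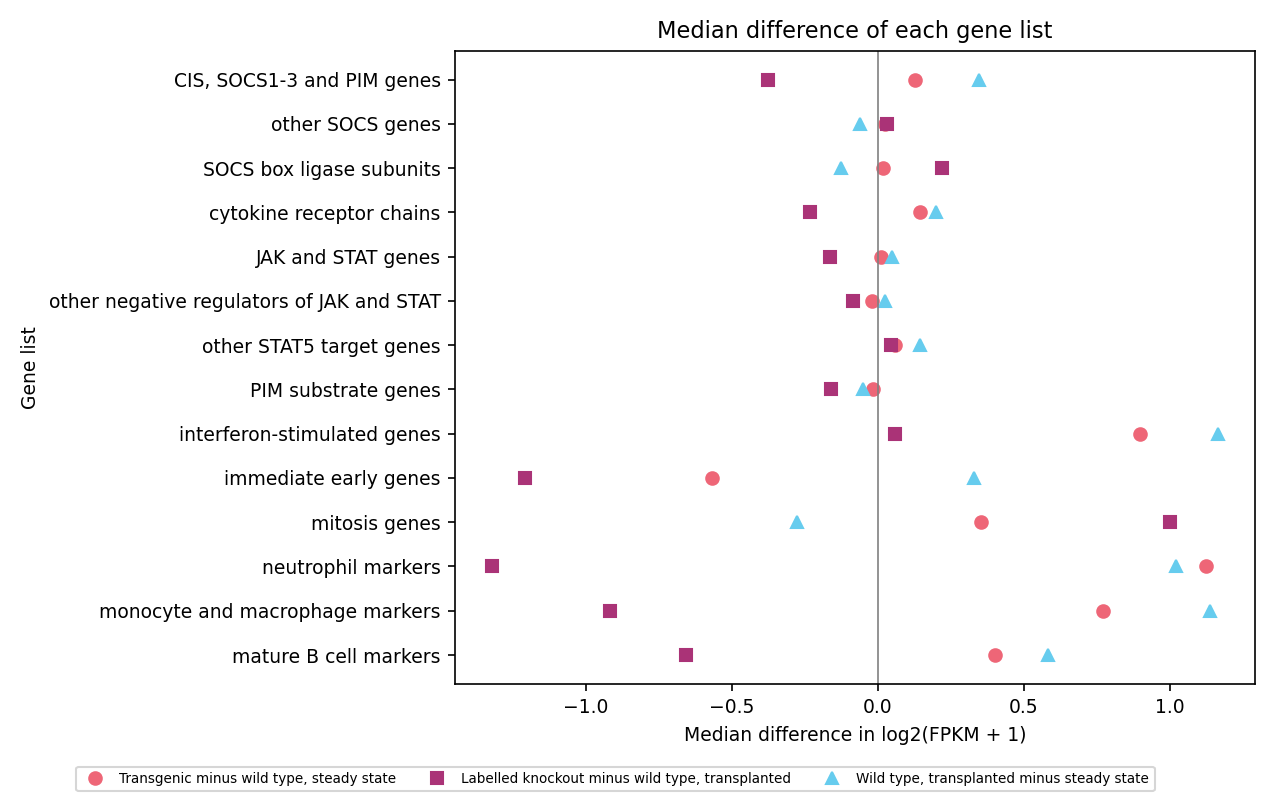
Median difference in log2(FPKM + 1) of each gene list in the 3 comparisons, 1 symbol per comparison, with a vertical line at 0. The 7 genes have medians of 0.13, -0.37 and 0.35, smaller in size than those of the neutrophil markers (1.12, -1.32 and 1.02); several medians near 0 change sign under rescaling to the same sum.

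Markers of further cell types were summed beside these genes. Monocyte and macrophage markers stood at 135, 199, 226 and 131 FPKM in sum and mature B cell markers at 1760, 2364, 2643 and 1673, both sums high in the same 2 libraries as Socs3. Ly86 made up 94.6, 124, 113 and 84.9 FPKM of the monocyte and macrophage sum and Lyz2 30.7, 52.0, 76.2 and 27.1, which hides the other genes. Of those, Csf1r, C1qc, Emr1, Ccr2 and Mpeg1 were higher in the labelled knockout than in the transgenic library, unlike Socs3. C1qa, C1qb, Cd14 and Vcam1 were lower there. Eosinophil, basophil and mast cell markers summed to 23.1, 75.6, 24.8 and 20.9 FPKM, plasma cell markers to 441, 315, 114 and 106, erythroid markers to 55.6, 7.70, 11.1 and 15.3, and megakaryocyte markers to 10.2, 5.48, 2.43 and 1.40. T and NK cell markers summed to 223, 187, 212 and 151 FPKM, of which Cd2, which B lineage cells also express, made up 202, 168, 184 and 130. Dendritic cell markers, of which the interferon-stimulated gene Bst2 alone passed the filter, summed to 29.1, 51.5, 64.3 and 68.7, pro-B and earlier markers to 1675, 1786, 2150 and 1639, and pre-B markers to 8064, 7475, 8084 and 7293. Ly6d made up 1374, 1417, 1797 and 1330 FPKM of the pro-B sum, which hides the other genes. Dntt stood at 2.12, 7.53, 12.1 and 15.1 FPKM and Ly6a at 32.3, 118, 69.7 and 48.6. Cd93, at 156, 109, 107 and 115 FPKM, was highest in steady-state wild type. The part of all these markers in the results was not tested.

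The genes whose profile over the 4 libraries was closest to each member were found by the distance between log2(FPKM + 1) values centred on each gene's mean, among 8206 genes at 5 FPKM or more in any library. Closest to Socs3 were H2-DMa, a chaperone of MHC class II loading (65.0, 98.7, 104 and 71.9 FPKM), the immediate early receptor gene Nr4a1 (12.3, 18.6, 21.0 and 14.1) and Slc17a9. Closest to Socs2 were the interferon-stimulated gene Ifit2 (2.26, 4.30, 4.86 and 5.11 FPKM), Ier5l and Cd83. Closest to Socs1 were Ckap4, the Toll-like receptor accessory gene Ly96 (9.67, 11.5, 8.81 and 6.41 FPKM) and Tnfaip8l2. Closest to Cish were Gtl3, Ndrg3 and Gng10, and closest to Pim3 were Nudt8, the polyamine synthesis gene Odc1 (28.6, 23.7, 39.1 and 31.7 FPKM) and Igsf9. Distances ran from 0.056 to 0.15 and rest on 4 libraries, which many genes can match. Pim1 and Pim2 spanned 1.47-fold and 1.41-fold on this scale, under the 1.5-fold set for this search.

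Transcripts of feedback genes are commonly short-lived, and the pentamer AUUUA in a 3′ untranslated region is a known mark of such RNAs. In the longest coding transcript of GENCODE M21, Pim1 and Pim3 each held 5 copies of ATTTA, in 1365 and 964 bases. Socs3 held 4 in 1474 bases, Cish 3 in 1087, Socs2 2 in 1163, Pim2 2 in 915 and Socs1 none in 1993. Per kilobase, Pim3 (5.19), Pim1 (3.66), Cish (2.76), Socs3 (2.71), Pim2 (2.19) and Socs2 (1.72) lay above the median of 1.30 over 9507 genes at 1 FPKM or more in any library, of which 68.9% held at least 1 copy. The reads and values of Socs1, Pim1 and Cish imply transcripts of about 1220, 1754 and 2162 nt, shorter than the 2908, 2698 and 2850 nt of these models, so the counts of ATTTA for these 3 genes may not hold for the transcripts the authors counted over.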

How the data were processed

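RNA was measured in 4 pre-B cell libraries. Total RNA came from miRNeasy preparations and went into stranded TruSeq mRNA libraries, per the labels' protocols. The deposited values are read as FPKM, since they are not whole and Cufflinks 2.2.1 is named, beside TopHat2 2.0.13, Bowtie2 2.2.3, SAMtools 0.1.19 and the mm10 build, in the submitters' processing notes. The headers name no unit. What each tool did, which annotation served and whether libraries were scaled to each other is not given in the sources used here.

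Depth came from the values. Low genes share 1 common ratio between libraries, that of equal reads, which 425 to 480 genes gave for each library against steady-state wild type. The smallest whole reads in the ratio of a gene's 4 values, each within 0.01, were found for 8373 of 11053 genes (75.8%) at 1 FPKM or more in any library, 6 of the 7 members among them. They are fixed up to a common factor, and for Pim1 they imply a transcript of 1754 nt where 2698 nt is annotated, so its intervals are less certain. The absolute depth used 659 genes with 1 annotated transcript, of which 43.7% lay within 1% of a common value at a length less 210 nt. Reads of 2360 other genes came from the longest coding transcript, and 320 had none.

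Differences were log2(FPKM + 1) where a gene reached 1 FPKM in at least 1 of the libraries compared, counted at 2-fold and 1.5-fold. Ratios carry 95% Clopper-Pearson intervals on the reads of both libraries, and levels exact Poisson intervals. No p-value is given. The procedure was tested on simulated reads. The members, 21 other gene lists and the comparisons were chosen with earlier results of these data known. The rule named all members, the 3 genes closest to each member that spanned 1.5-fold, and up to 3 genes of a list with the largest differences; further list genes were named after their values were seen. Some genes that the rule names are not reported here. Alternatives were other pseudocounts, filters, scalings and folds. Python 3.11.15, numpy 2.4.6, pandas 2.3.3, scipy 1.17.1 and matplotlib 3.10.9 were used.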

Additional observations from a re-analysis of the deposited data

How the results depend on the processing

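The count of the 7 genes at 2-fold, 0 in each comparison, stayed 0 with a pseudocount of 5, without the filter for low values, at 5 FPKM or more, and under the 3 rescalings. With a pseudocount of 0.1 it was 1 in the transgenic comparison and 2 between the wild types; at 1.5-fold it was 2 in the transgenic comparison, 1 in the knockout comparison and 2 between the wild types. Of 105 differences of single genes recomputed with another pseudocount or scaling, 97 moved by less than their counting interval and kept their sign, 3 (Pim1 under rescaling to the same sum) moved by more and 5 changed sign. Those that changed sign were Pim2 in the transgenic comparison (-0.0126) and, in the knockout comparison, Cish (0.0467) and Socs2 (0.0357), all under rescaling to the same sum, and Cish under rescaling by the median of gene ratios (0.0071) and the upper quartile (0.0057). Under rescaling to the same sum the median of all genes was -0.13, 0.06 and -0.12 in the 3 comparisons. Cish and Socs3 were left out at 5 FPKM or more. No paired analysis was possible because each group has 1 library. Depth limits Cish and Socs3 most, at 13 to 52 reads per library.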
